A study of Mus musculus with 16 samples.

Results

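Leukocytes that enter an inflamed tissue hold on to surface proteins of its resident cells. The genes described here encode 2 such adhesion proteins (Vcam1 and Icam1), 2 chemokines that are built into the cell membrane (Cx3cl1 and Cxcl16) and the 2 proteases that cut these proteins from the surface (Adam10 and Adam17). These 6 genes, of 56941 in the deposited count table, were selected by name from a table whose differences between conditions were already known. Their differences between conditions are therefore given as a description. All 6 were among the 16306 genes with enough counts to be tested.

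Libraries came from primary gingival fibroblasts (mGF), connective tissue cells grown from gum of WT C57Bl6 mice aged 3 to 6 months and used at passages 2 to 8. The 4 conditions had 4 libraries each: BSA (control), IL-1β at 1 ng/mL, palmitate bound to BSA at 200 μM, and palmitate + IL-1β at those same doses. The incubation lasted 24 h per the study's legends. Palmitate is a saturated fatty acid that reaches cells bound to albumin, and IL-1β is an inflammatory cytokine that fibroblasts sense through its receptor. BSA without fatty acid was the vehicle, and while the labels of the IL-1β libraries name IL-1β only, the study describes IL-1β given with or without palmitate on that vehicle. No label ties a library to a separate culture or animal, so the spread between libraries may be technical.

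As background, VCAM1 and ICAM1 are immunoglobulin-like proteins that integrins on leukocytes bind, VCAM1 through the integrin that contains ITGA4 and ICAM1 through those that contain ITGB2. CX3CL1 and CXCL16 carry their chemokine domain on a stalk anchored in the membrane, so that they can hold a cell that bears CX3CR1 or CXCR6, and become soluble attractants once cut. ADAM10 is known for constitutive cutting and ADAM17, also called TACE, for cutting on stimulation. Only RNA was measured here, so neither surface nor shed protein is described.

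Gene counts per library ranged from 21234789 to 35329711, apart from 1 palmitate library (replicate 10) with 92752515, and leaving it out kept the calls of palmitate against BSA at 5 of the 6 genes. Levels are given as CPM, the counts of a gene scaled to the library's TMM-adjusted total, and 3 counts corresponded to 0.0330 to 0.146 CPM on this scale. Fibroblast markers (9 genes) summed to 28473 to 33713 CPM in every library. Of this list, Lum was low, with 19 to 137 counts, and the others had at least 1488, the lowest count of Dcn. Markers of leukocytes and macrophages (5 genes) summed to 1.65 to 2.86 CPM, those of endothelium (5 genes) to 1.43 to 2.29 CPM and those of keratinocytes (4 genes) to 0.164 to 0.728 CPM. Of the leukocyte and macrophage list, Adgre1 did not exceed 3 counts in any library. Ptprc had 0 to 7 counts, Itgam 0 to 5, Lyz2 9 to 43 and Csf1r 24 to 122. Of the endothelial list, Emcn did not exceed 3 counts. Kdr had 3 to 14 counts, Pecam1 3 to 42, Tek 6 to 28 and Cdh5 7 to 52. The pericyte and smooth muscle markers (4 genes) summed to 77.3 to 112 CPM. In bulk RNA, fewer cells of a type and less RNA per cell cannot be told apart.

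The promoters of Icam1, Cx3cl1 and Adam10 are shown because Icam1 had the largest differences between conditions of the 6 genes, Cx3cl1 was the most abundant ligand per length in every condition, and Adam10 stayed within a narrow range. In CPM not divided by length, Vcam1 stood above Cx3cl1 in every condition. The RefSeq promoter table used here matched 4 of the 6 genes (these 3 and Adam17), on the build GRCm38.p6. The sequences run 5′ to 3′ for the 250 bases before the annotated start, at chr9:21015690-21015939 (plus strand) for Icam1, chr8:94771930-94772179 (plus strand) for Cx3cl1 and chr9:70678732-70678981 (plus strand) for Adam10. Capitals mark every match to the motifs searched.
Icam1: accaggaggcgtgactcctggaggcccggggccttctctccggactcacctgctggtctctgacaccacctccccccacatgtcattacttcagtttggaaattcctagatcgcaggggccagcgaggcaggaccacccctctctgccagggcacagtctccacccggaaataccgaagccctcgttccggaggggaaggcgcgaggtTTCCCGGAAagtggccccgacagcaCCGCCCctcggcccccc
Cx3cl1: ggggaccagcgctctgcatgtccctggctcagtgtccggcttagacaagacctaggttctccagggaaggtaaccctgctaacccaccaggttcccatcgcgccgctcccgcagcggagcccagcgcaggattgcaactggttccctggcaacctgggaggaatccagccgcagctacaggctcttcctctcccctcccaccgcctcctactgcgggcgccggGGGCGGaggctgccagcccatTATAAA
Adam10: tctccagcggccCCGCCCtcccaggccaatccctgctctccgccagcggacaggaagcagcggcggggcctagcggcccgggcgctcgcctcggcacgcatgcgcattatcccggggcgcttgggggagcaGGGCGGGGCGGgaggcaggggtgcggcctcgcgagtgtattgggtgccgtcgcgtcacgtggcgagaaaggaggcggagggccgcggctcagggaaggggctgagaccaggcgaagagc

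Motifs were searched on both strands in windows that also held the 50 bases after the start. They were the NF-kB consensus (in a form that must begin with GGG and end with CC, near matches not counted), AP-1 (TGANTCA), GAS (TTCNNNGAA, the element of STAT factors), the interferon element ISRE, the GC box (GGGCGG) and the TATA box (TATAAA). The Icam1 window held a GAS match at bases -42 to -34, a GC box at -17 to -12, and, after the printed stretch, a TATA box at 14 to 19 and a GC box at 24 to 29. In the Cx3cl1 window a GC box lay at -27 to -22 and a TATA box at -6 to -1, with no match to GAS. The Adam10 window had 3 GC boxes, 2 of them overlapping, and no match to GAS or the TATA box. The Adam17 window, at chr12:21373633-21373882 (minus strand) before its start, had 1 GC box and likewise no match to GAS or the TATA box. Among 32851 RefSeq promoter windows of the same length, 8.30% held GAS, 35.7% the GC box and 13.6% the TATA box. None of the 4 windows held a match to this form of the NF-kB consensus, AP-1 or ISRE, which stood in 4.51%, 7.81% and 3.44% of the windows. The printed Icam1 stretch does hold tggaaattcc, which departs from this NF-kB form only at its first letter. How often such near matches occur in other windows was not counted. These matches describe letters only.

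In the GRCm39 annotation Vcam1 lies at chr3:115903598-115923355 on the minus strand, Icam1 at chr9:20926672-20940113 on the plus strand, Cx3cl1 at chr8:95498637-95509055 on the plus strand and Cxcl16 at chr11:70344517-70352620 on the minus strand. Adam10 lies at chr9:70586221-70687511 on the plus strand and Adam17 at chr12:21373510-21423672 on the minus strand. The counts are per gene over its exons.

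Vcam1 and Icam1, the adhesion proteins, were both higher after IL-1β than in BSA, and higher still after palmitate. Vcam1 stood at 44.7, 41.3, 42.0 and 49.4 CPM in the BSA libraries and at 145, 139, 153 and 147 CPM with IL-1β. It reached 575, 575, 571 and 547 CPM with palmitate and 602, 597, 597 and 559 CPM with both agents. The libraries of BSA, IL-1β and either palmitate condition did not overlap, while those with and without IL-1β in the presence of palmitate did. By edgeR the log2 fold change against BSA was 1.72 (SE 0.050) for IL-1β, 3.68 (SE 0.053) for palmitate, which is 12.8-fold, and 3.73 (SE 0.053) for both.

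Icam1 was close to silent in BSA, at 1.36, 0.969, 0.725 and 1.71 CPM from 19 to 49 counts. With IL-1β it stood at 12.5, 12.6, 13.5 and 14.4 CPM. Palmitate libraries held 109, 109, 110 and 112 CPM, and libraries with both agents 130, 125, 125 and 111 CPM. Its order of conditions was that of Vcam1, again with overlap between the palmitate conditions. The log2 fold change against BSA was 3.46 (SE 0.12) for IL-1β, 6.51 (SE 0.099) for palmitate and 6.67 (SE 0.099) for both, or 11.0-fold, 90.9-fold and 102-fold. Ordered by log2 fold change of palmitate against BSA, Icam1 took place 15 among the 16306 genes and Vcam1 place 90. The BSA libraries varied more for Icam1 than for Vcam1, with a coefficient of variation of 36.5% against 8.25%, at the low counts given.

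**Figure D1:**
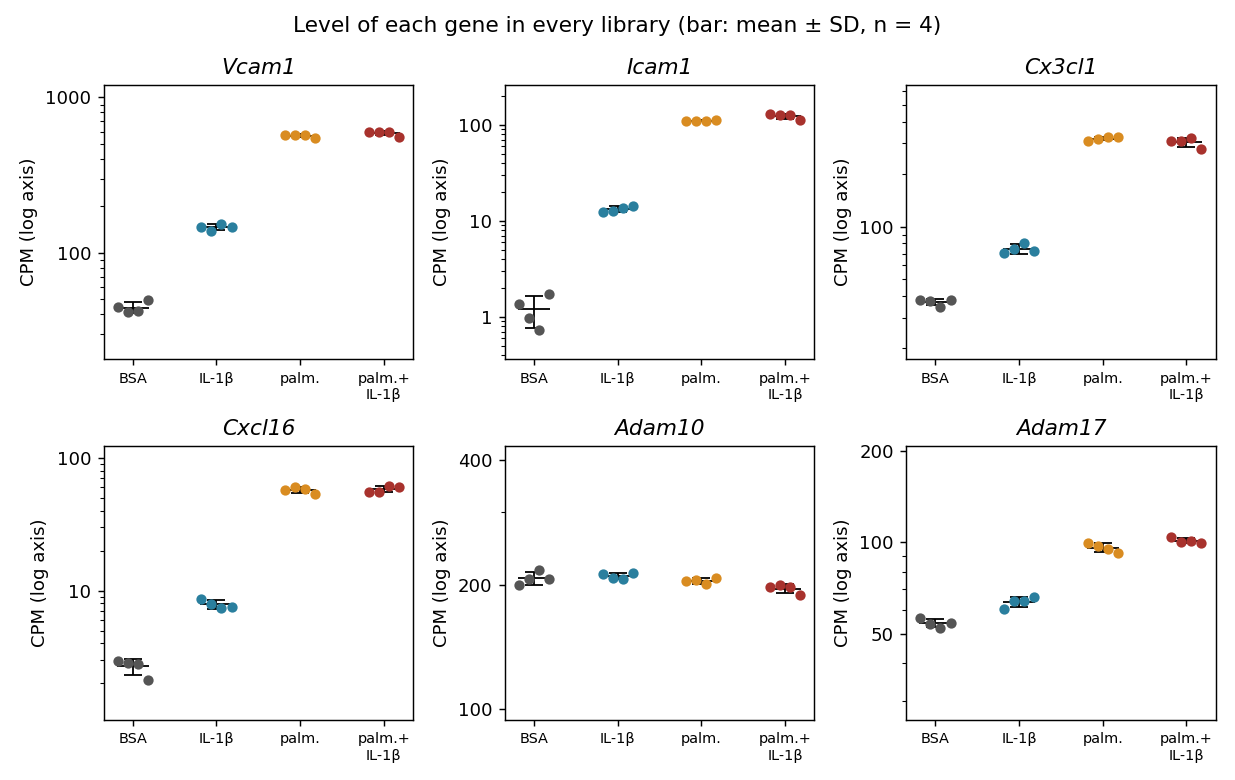
Level of each of the 6 genes in CPM (log axis) in the 16 libraries, by condition, with points for libraries and bars for mean ± SD (n = 4). The 4 ligand genes step up from BSA to IL-1β to palmitate, with the palmitate conditions side by side, while Adam10 stays between 189 and 217 CPM.

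Cx3cl1 and Cxcl16, the membrane-anchored chemokines, followed the same order. Cx3cl1 stood at 37.8, 37.7, 34.8 and 37.7 CPM in BSA and at 70.3, 74.3, 80.8 and 72.7 CPM with IL-1β. It stood at 310, 319, 324 and 325 CPM with palmitate and at 309, 308, 321 and 280 CPM with both. BSA and IL-1β libraries lay apart from each other and from all 8 palmitate libraries, and the palmitate conditions overlapped. Its log2 fold change against BSA was 1.01 (SE 0.050) for IL-1β, 3.11 (SE 0.051) for palmitate and 3.04 (SE 0.051) for both.

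Cxcl16 was a low gene in BSA, with 2.96, 2.88, 2.78 and 2.13 CPM, and held 8.63, 7.93, 7.34 and 7.54 CPM with IL-1β. Palmitate libraries held 56.8, 60.2, 58.3 and 52.9 CPM, and libraries with both agents 55.1, 55.6, 61.5 and 59.9 CPM. Only the palmitate conditions overlapped. The log2 fold change against BSA was 1.54 (SE 0.096) for IL-1β, 4.40 (SE 0.079) for palmitate, or 21.2-fold, and 4.42 (SE 0.079) for both. In the annotation 43.2% of the Cxcl16 exon bases also belong to Med11 and 41.6% to Zmynd15, both on the opposite strand. Per kilobase of merged exons, Med11 stood at 0.681 ± 0.0721 CPM in BSA and 0.813 ± 0.0711 CPM with palmitate, and Zmynd15 at 0.0348 ± 0.0186 and 0.394 ± 0.0198 CPM (SD, n = 4), against 11.1 ± 0.602 CPM for Cxcl16 with palmitate. A smaller overlap, 10.3% of its exon bases, joins Icam1 to the antisense gene Gm47079, which did not exceed 129 counts in a library. In the BSA libraries Gm47079 had 13 to 30 counts, beside 19 to 49 for Icam1. It stood at 0.748 ± 0.201 CPM in BSA and 1.73 ± 0.476 CPM with palmitate. Icam1 stood at 1.19 ± 0.435 and 110 ± 1.40 CPM in these conditions (SD, n = 4). Another 10.8% of the Cx3cl1 exon bases lie opposite the lncRNA gene 1700121C10Rik, whose level was not analysed here, and 3.99% of those of Adam17 lie opposite Iah1. For Vcam1, 0.678% of the exon bases lie opposite the lncRNA gene Gm43109. Gm43109 stood at 0.187 ± 0.0577 CPM in BSA and 1.49 ± 0.406 CPM with palmitate (SD, n = 4). The name of the table says that it was counted by strand. Without strand, reads from either partner could not be told apart.

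Of the sheddases, Adam10 gave no edgeR call in any condition against BSA in the fit of all libraries and Adam17 was called higher in all 3. Adam10 stood at 199, 206, 217 and 207 CPM in BSA, at 212, 208, 207 and 214 CPM with IL-1β, at 204, 205, 201 and 208 CPM with palmitate and at 198, 199, 197 and 189 CPM with both. All conditions overlapped except that the libraries with both agents lay below those of each single agent. The log2 fold change was -0.02 for palmitate against BSA (95% interval -0.10 to 0.06, edgeR adjusted p = 0.711) and 0.02 for IL-1β against BSA (-0.06 to 0.10, edgeR adjusted p = 0.796). It was -0.08 for both against BSA (-0.16 to -0.01, edgeR adjusted p = 0.0738). That last difference was called lower in 5 of 22 other fits, namely by DESeq2 (-0.09, adjusted p = 0.0247), under upper-quartile normalization (-0.16, edgeR adjusted p = 0.000477), with at least 10 counts in every library (-0.11, edgeR adjusted p = 0.0150), without mitochondrially encoded and ribosomal RNA genes (-0.10, edgeR adjusted p = 0.0395) and without BSA replicate 1 (-0.12, edgeR adjusted p = 0.0208). These intervals leave out changes as large as those of Adam17 with palmitate. Against IL-1β alone, both agents gave -0.10 (SE 0.039, edgeR adjusted p = 0.0366), a difference of -6.91%, and that call was lost on leaving out IL-1β replicate 5, 6 or 8 or palmitate + IL-1β replicate 15 or 16 (adjusted p from 0.0552 to 0.107, edgeR).

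Adam17 was higher wherever palmitate was present and, by less, with IL-1β alone. It stood at 56.2, 53.8, 52.2 and 54.2 CPM in BSA and at 60.3, 63.9, 64.0 and 65.9 CPM with IL-1β. Palmitate libraries held 99.4, 97.5, 94.8 and 92.2 CPM, and libraries with both agents 104, 100.0, 101 and 99.5 CPM. No pair of conditions overlapped, although the gap between the palmitate conditions was small. Against BSA the log2 fold change was 0.23 for IL-1β (SE 0.043, edgeR adjusted p = 0.000189), 0.83 for palmitate (SE 0.042), or 1.77-fold, and 0.90 for both (SE 0.042). Adam17 moved in the direction of the ligands, by less on the log2 scale than any of the 4.

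Across the 6 genes, 5 passed the threshold (edgeR adjusted p under 0.05 over all genes tested) as higher with palmitate than in BSA, where 37.3% of all genes tested passed, 19.8% as higher and 17.5% as lower. With IL-1β against BSA the same 5 genes were called higher, where 15.1% of all genes passed (10.1% higher, 4.97% lower). With both against BSA these 5 were called again, against 47.3% of all genes (24.8% higher, 22.5% lower). Palmitate against IL-1β gave 5 higher, against 31.6% of all genes (16.5% higher, 15.2% lower). Both agents against IL-1β gave those 5 higher and Adam10 lower, against 35.0% of all genes (18.9% higher, 16.1% lower). Of the calls over all genes, 53.1% were higher for palmitate, 67.1% for IL-1β and 52.4% for both against BSA, and 37.1%, 43.5% and 38.7% under upper-quartile normalization. Nothing is read from these shares, since the genes were chosen with the differences known, and the comparisons share libraries. The median log2 fold change of the 6 genes was 3.39 for palmitate and 1.27 for IL-1β against BSA, where the median over all genes was -0.0030 and -0.0049.

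**Figure D2:**
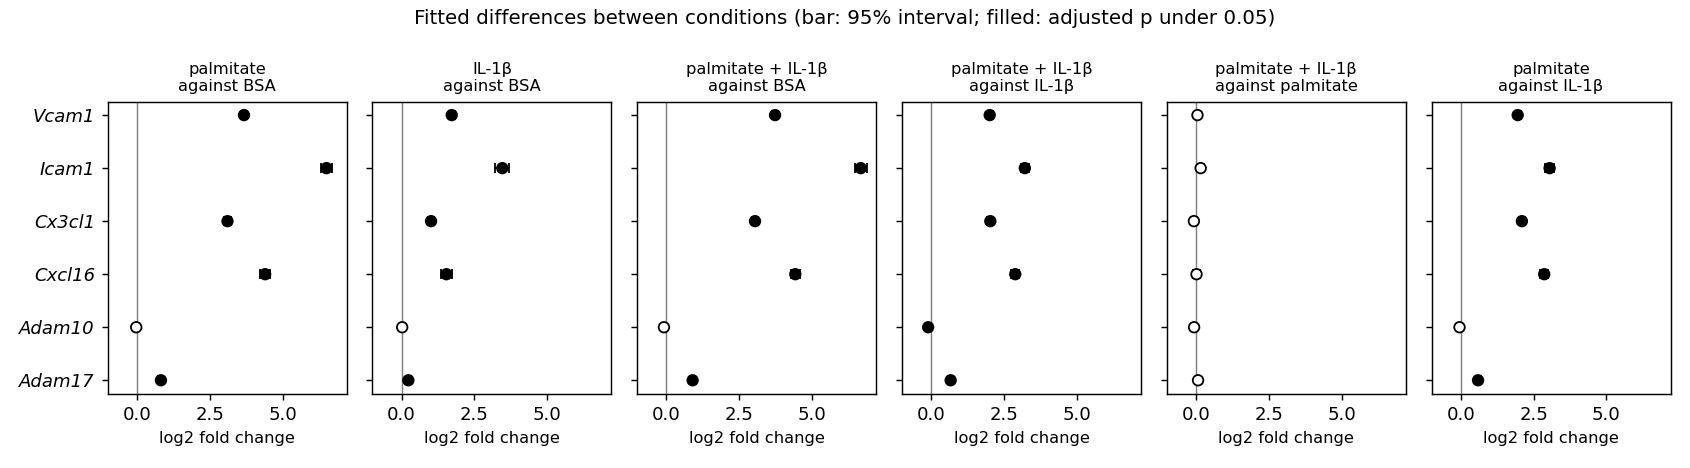
Fitted log2 fold change of each gene in 6 comparisons of conditions, with 95% intervals and filled points where the edgeR adjusted p was under 0.05. The 4 ligands and Adam17 sit to the right of 0 in every panel but that of both agents against palmitate, where all points lie between -0.07 and 0.16.

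Adding IL-1β to palmitate gave no called difference in any of the 6 genes by edgeR, where 9.81% of all genes were called (5.71% higher, 4.10% lower). The log2 fold change of both against palmitate was 0.05 for Vcam1 (95% interval -0.04 to 0.15), -0.07 for Cx3cl1 (-0.16 to 0.02), 0.02 for Cxcl16 (-0.09 to 0.13) and 0.07 for Adam17 (-0.01 to 0.16). For Icam1 it was 0.16 (0.04 to 0.28, edgeR adjusted p = 0.0831). Icam1 was the 1 gene of the 6 with an unadjusted p under 0.05 and the 1 gene that DESeq2 called (adjusted p = 0.0304). It also passed in a fit of the 8 libraries alone (edgeR adjusted p = 0.0293), without BSA replicate 3 (edgeR adjusted p = 0.0317) or 4 (edgeR adjusted p = 0.0437), and without palmitate + IL-1β replicate 16, its lowest library with both agents (log2 fold change 0.21, edgeR adjusted p = 0.0186). For Adam10 the difference was -0.06 (-0.14 to 0.02).

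For the 4 ligands, then, the log2 difference made by IL-1β was far smaller in the presence of palmitate than in its absence. On the log2 scale the interaction, the palmitate difference with IL-1β minus that without it, was -1.67 (SE 0.068) for Vcam1, -3.29 (SE 0.14) for Icam1, -1.08 (SE 0.067) for Cx3cl1 and -1.52 (SE 0.11) for Cxcl16. These 4 passed the edgeR threshold as lower, where 1.99% of all genes passed in either direction. Adam17 gave -0.16 (SE 0.059, edgeR adjusted p = 0.255) and Adam10 -0.08 (SE 0.054, edgeR adjusted p = 0.676).

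The linear scale gave another picture for part of these genes. Had the CPM gained with IL-1β and with palmitate simply been added to the BSA level, Icam1 would stand at 122 CPM, and it was measured at 123 ± 7.99 CPM (SD, n = 4), a difference of 1.02 CPM (SE 4.09). Cxcl16 would stand at 62.2 CPM and was measured at 58.0 ± 3.17 CPM, a difference of -4.21 CPM (SE 2.24). Vcam1 fell short of the sum by more than its error, at 588 ± 19.9 CPM against 669 CPM, a difference of -80.5 CPM (SE 12.5). Cx3cl1 did likewise, at 305 ± 17.5 CPM against 357 CPM, a difference of -52.6 CPM (SE 9.66). Its mean with both agents was below that with palmitate alone (320 ± 6.70 CPM). For Adam17 the measured level was 101 ± 1.90 CPM against its sum, a difference of -4.42 CPM (SE 2.33). Adam10 stood at 196 ± 4.78 CPM against a sum of 207 CPM, a difference of -11.5 CPM (SE 4.94). For Icam1 no departure from the sum was thus seen in CPM beyond its error. That error (SE 4.09) is wide beside its IL-1β increment of 12.0 CPM, so a smaller departure would be missed. Its palmitate increment was 109 CPM.

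**Figure D3:**
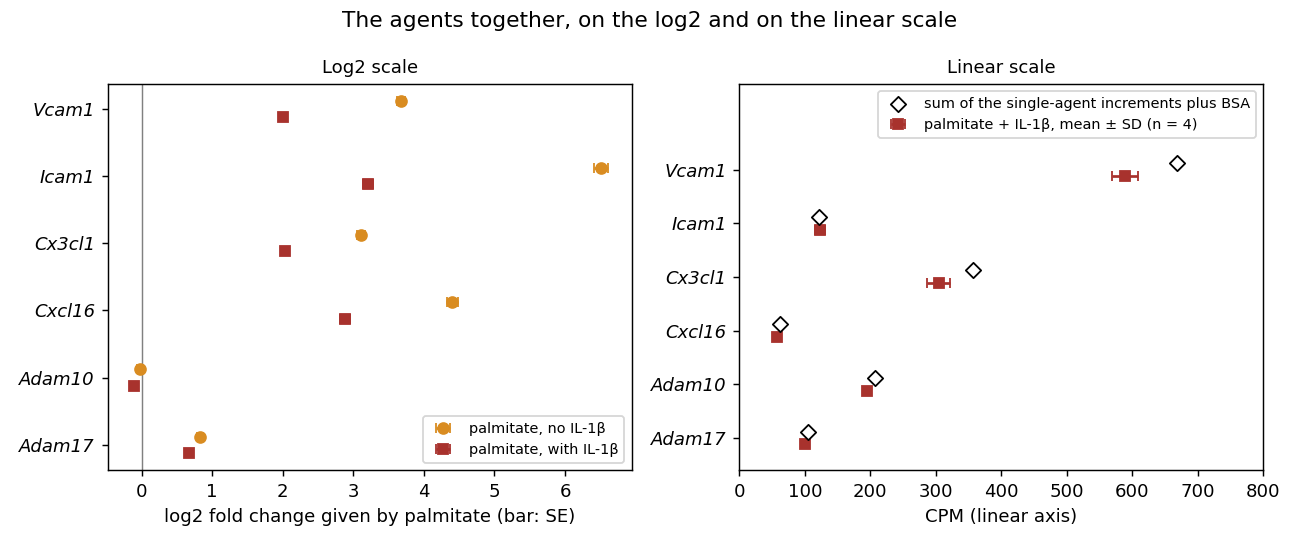
Left, log2 fold change given by palmitate without and with IL-1β (bars are SE), where the squares of the 4 ligands lie left of the circles. Right, CPM measured with both agents (squares, mean ± SD, n = 4) beside the BSA level plus the single-agent increments (diamonds), which coincide for Icam1 at 123 and 122 CPM and part for Vcam1 at 588 and 669 CPM.

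Levels of different genes were set side by side as CPM per kilobase of merged exons, a length that counts every annotated exon. That length was 8992 bases for Vcam1, 3970 for Cx3cl1, 5569 for Adam10 and 8555 for Adam17. The orders, ratios and shares per length rest on it. Before division by length, Vcam1 stood above Cx3cl1, at 44.4 and 37.0 CPM in BSA and at 567 and 320 CPM with palmitate. In BSA, Adam10 led with 37.3 ± 1.31 CPM per kb (SD, n = 4), ahead of Cx3cl1 at 9.32 ± 0.369, Adam17 at 6.32 ± 0.192, Vcam1 at 4.93 ± 0.407, Cxcl16 at 0.525 ± 0.0737 and Icam1 at 0.240 ± 0.0875 CPM per kb. With palmitate the order on this scale became Cx3cl1 at 80.5 ± 1.69, Vcam1 at 63.1 (range over libraries 60.9 to 64.0), Adam10 at 36.7 ± 0.531, Icam1 at 22.1 ± 0.282, Adam17 at 11.2 ± 0.368 and Cxcl16 at 11.1 ± 0.602 CPM per kb. Adam17 and Cxcl16 did not differ beyond their spread there. Per length, the ligand transcripts that stood below Adam10 in BSA thus included Cx3cl1 and Vcam1, which stood above it with palmitate.

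The balance between the sheddases moved with it. The ratio of Adam10 to Adam17 per length was 5.90 ± 0.385 in BSA, 5.09 ± 0.217 with IL-1β, 3.27 ± 0.130 with palmitate and 2.98 ± 0.0711 with both (SD, n = 4). Its range over libraries, 5.45 to 6.39 in BSA and 3.16 to 3.46 with palmitate, did not overlap between these conditions. Cx3cl1 per Adam17 transcript per length rose from 1.47 ± 0.0363 in BSA to 7.19 ± 0.375 with palmitate, and Vcam1 per Adam17 from 0.780 ± 0.0599 to 5.62 ± 0.0940. These are ratios of RNA and say nothing of enzyme activity.

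Among the 4 ligands the make-up per length shifted from Cx3cl1 towards Icam1. Cx3cl1 held 62.1 ± 1.48% of their summed CPM per kb in BSA, 47.8 ± 1.32% with IL-1β, 45.5 ± 0.842% with palmitate and 43.0 ± 0.652% with both (SD, n = 4). Icam1 went from 1.58 ± 0.511% in BSA to 6.80 ± 0.411% with IL-1β, 12.5 ± 0.237% with palmitate and 13.9 ± 0.417% with both. Vcam1 held its highest share, 41.4 ± 0.924%, with IL-1β, against 32.8 ± 1.62% in BSA and 35.7 ± 0.772% with palmitate. For Cxcl16 the share was 3.51 ± 0.580% in BSA, 3.92 ± 0.413% with IL-1β and 6.30 ± 0.297% with palmitate. Although palmitate brought all 4 to higher CPM than IL-1β did, the mixtures of the agents differed most in Icam1 and Vcam1, by their mean shares.

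**Figure D4:**
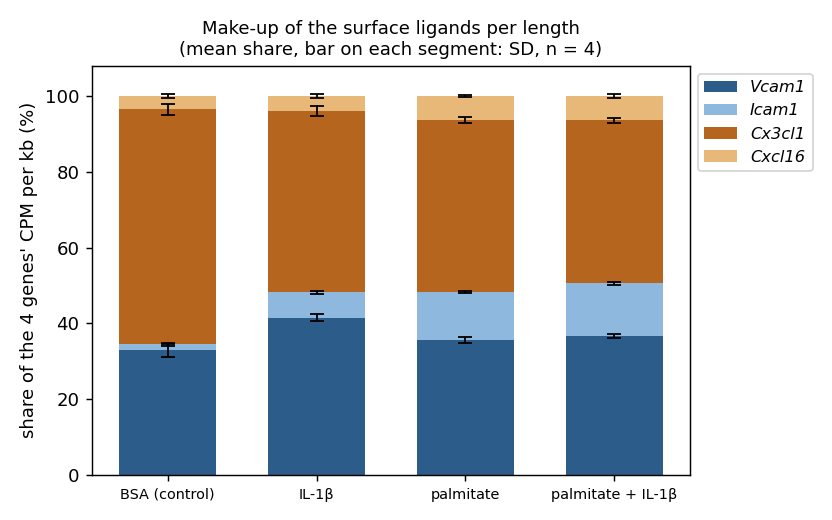
Mean share (%) of Vcam1, Icam1, Cx3cl1 and Cxcl16 in their summed CPM per kb in each condition, with SD over 4 libraries on each segment. The Cx3cl1 segment shrinks from 62.1% in BSA to 43.0% with both agents and the Icam1 segment grows from 1.58% to 13.9%.

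Genes whose pattern over the 16 libraries was most like each ligand, by Pearson's r of log2 CPM among 11827 genes, are given as a description, since the libraries share 4 conditions. Vcam1 was most like Cxcl5, a neutrophil chemokine (r = 0.998), then Gbp5 (r = 0.997) and S1pr3 (r = 0.996). Icam1 was most like Ccl7, a monocyte chemokine, and Ripk2 (both r = 0.997), then Vcam1 itself (r = 0.996). For Cx3cl1 they were C3, the central complement protein, and Gbp2 (both r = 0.997) and Cyp7b1 (r = 0.996). Cxcl16 was most like Syt7 (r = 0.997), Gbp2 and C3 (both r = 0.996).

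Other adhesion ligands gave a mixed picture beside Vcam1 and Icam1. Of 25 listed, 19 were tested, of which 10 were called higher and 4 lower with palmitate (edgeR, all genes), 4 higher and 3 lower with IL-1β, and 10 higher and 5 lower with both, each against BSA. Over all genes tested, 19.8% were called higher and 17.5% lower with palmitate, 10.1% and 4.97% with IL-1β, and 24.8% and 22.5% with both. Nothing is read from these counts or those of the lists below, since the lists were chosen with earlier results known. The median log2 fold change of the 19 ligands with palmitate was 0.17, against -0.0030 over all genes. Sele and Madcam1, selectin and addressin genes best known from endothelium, rose with palmitate but stayed low. Sele had 0 counts in all BSA libraries and 0.509 ± 0.0974 CPM with palmitate (SD, n = 4), at least 5.03-fold higher than 3 counts per BSA library. Madcam1 had at most 1 count in a BSA library and 0.524 ± 0.118 CPM with palmitate. Some called rises were in abundant genes, of which 2 are named after their values were seen. Cd44 went from 315 ± 17.1 to 1005 ± 21.2 CPM and Cd47 from 126 ± 6.48 to 215 ± 8.10 CPM with palmitate. Endothelial markers summed to 1.43 to 1.95 CPM with palmitate and to 1.78 to 2.29 CPM in BSA. Aoc3, an amine oxidase that also serves as an adhesion protein, fell from 40.7 ± 2.97 to 22.2 ± 1.25 CPM, a log2 fold change of -0.87 (SE 0.058). Cd99l2, an adhesion protein used in leukocyte passage, fell by 0.20 on the log2 scale (SE 0.041).

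The receptors of the chemokines and the chains that pair with Itgb2 had few counts in the same libraries, while Itgb1, the chain that pairs with Itga4, was abundant. Of 10 listed, 4 were tested, of which 3 were called higher with palmitate and 1 with both (edgeR). Higher calls over all genes made up 19.8% and 24.8% in these comparisons. With IL-1β 0 of the 4 were called by edgeR, 0 had an unadjusted p under 0.05 and 0 were called by DESeq2. Over all genes 15.1% were called with IL-1β by edgeR. The median log2 fold change of the 4 with palmitate was 0.23. Cx3cr1 and Cxcr6, the receptors of Cx3cl1 and Cxcl16, had at most 13 and 23 counts in a library and were not tested. Itgb2, the shared chain of the ICAM1-binding integrins, went from 0.660 ± 0.147 CPM in BSA to 1.80 ± 0.311 CPM with palmitate (SD, n = 4; log2 fold change 1.44, SE 0.21), while its partner chains Itgal, Itgam and Itgax stayed at 7 counts or fewer. Itga4, part of the receptor of VCAM1, stood at 5.98 ± 0.675 and 7.21 ± 0.521 CPM, a call that was lost in 7 of 22 other fits (adjusted p from 0.0524 to 0.174, edgeR), highest without palmitate replicate 10. The other 2 tested chains are named after their values were seen. Itgb1 stood at 2295 ± 102 CPM in BSA and 2300 ± 11.4 CPM with palmitate (edgeR adjusted p = 0.961), and Itga9, another partner of Itgb1, at 37.1 ± 2.49 CPM with palmitate, 0.17 above BSA on the log2 scale (SE 0.055, edgeR adjusted p = 0.0131). The leukocyte and macrophage markers summed to 1.65 to 2.18 CPM with palmitate and to 1.91 to 2.81 CPM in BSA.

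Partners of the sheddases moved in both directions. Of 16 partners and inhibitors listed, 14 were tested, of which 4 were called higher and 6 lower with palmitate, 1 higher and 2 lower with IL-1β, and 1 higher and 7 lower with both (edgeR). Calls over all genes made up 37.3% with palmitate, 15.1% with IL-1β and 47.3% with both. The median log2 fold change of the 14 with palmitate was -0.15. Rhbdf2 (iRhom2), which carries ADAM17 to the surface, rose with palmitate from 17.6 ± 0.936 to 40.6 ± 2.00 CPM (SD, n = 4), a log2 fold change of 1.20 (SE 0.052), beside 0.83 for Adam17. It was also called higher with IL-1β (0.58, SE 0.054) and with both (1.30, SE 0.052). Tspan14 and Tspan33, tetraspanins that escort ADAM10, were lower with palmitate, Tspan14 at 13.8 ± 1.21 and 9.39 ± 0.433 CPM and Tspan33 at 0.498 ± 0.135 and 0.187 ± 0.0418 CPM. The Tspan33 level with palmitate was near the floor, as 3 counts corresponded to up to 0.146 CPM. Timp1, a secreted inhibitor of metalloproteinases, rose from 103 ± 9.71 to 131 ± 6.01 CPM. Timp3, in the same list, stood at 945 ± 69.7 CPM in BSA and 966 ± 48.2 CPM with palmitate. With IL-1β Timp3 was called lower (log2 fold change -0.17, edgeR adjusted p = 0.0176), a call lost in 3 of 22 other fits.

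Among other ADAM proteases, Adam8 had the largest palmitate difference. Of 7 listed, 6 were tested, with 2 called higher and 1 lower with palmitate, 1 called (higher) with IL-1β, and 1 higher and 2 lower with both (edgeR), and a median log2 fold change with palmitate of -0.07. Calls over all genes made up 37.3% with palmitate, 15.1% with IL-1β and 47.3% with both. Adam8 stood at 0.722 ± 0.279 CPM in BSA and 2.48 ± 0.0657 CPM with palmitate (SD, n = 4; log2 fold change 1.76, SE 0.20). Adam9, an abundant relative, stood at 338 ± 8.79 and 364 ± 2.21 CPM, a call lost in 11 of 22 other fits (adjusted p from 0.0520 to 0.430, edgeR), among them upper-quartile normalization, both other count filters and 7 of the 16 that leave out 1 library. Adam33 stood at 2.19 ± 0.668 and 1.39 ± 0.146 CPM, a call lost without BSA replicate 1 (edgeR adjusted p = 0.115). The single call with IL-1β, that of Adam8 (log2 fold change 0.66, edgeR adjusted p = 0.0461), was lost in 15 of the 22 (adjusted p from 0.0515 to 0.140, edgeR), 12 of them leaving out 1 library.

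Other proteins cut by these sheddases were tested for 27 of 31 genes, of which 12 were called higher and 6 lower with palmitate, 8 higher and 3 lower with IL-1β, and 14 higher and 7 lower with both (edgeR). Calls over all genes made up 37.3% with palmitate, 15.1% with IL-1β and 47.3% with both. The median of the 27 with palmitate was 0.12 on the log2 scale. Csf1, the macrophage growth factor that is also made in a membrane-bound form, rose with palmitate from 238 ± 2.92 to 858 ± 2.51 CPM (SD, n = 4), and stood at 612 ± 20.2 CPM with IL-1β and 1170 ± 37.3 CPM with both. Csf1 was also called higher with both agents than with palmitate alone (log2 fold change 0.45, SE 0.038). Jag1, a Notch ligand, fell from 238 ± 4.07 to 82.8 ± 1.65 CPM with palmitate, and Mertk, a receptor for dying cells, from 2.66 ± 0.247 to 0.791 ± 0.163 CPM. Areg, an epidermal growth factor receptor ligand, was called higher with palmitate at 0.249 ± 0.0919 CPM, with at most 2 counts in a BSA library. Tnf, the best known ADAM17 substrate, had at most 5 counts in a library and was not tested.

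**Figure D5:**
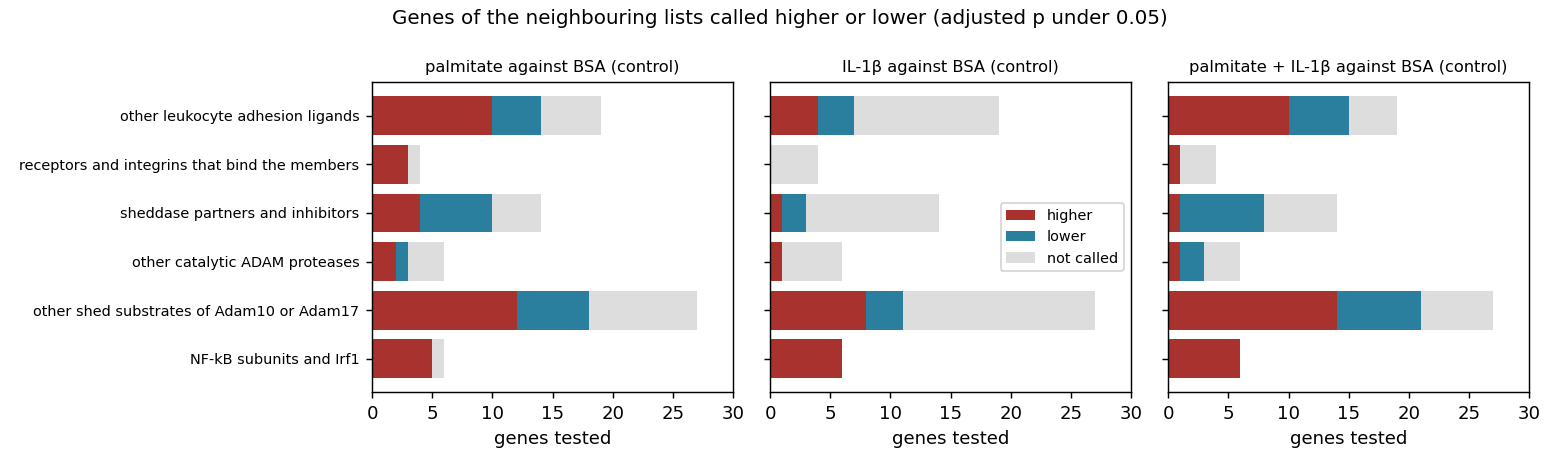
Numbers of tested genes in each neighbouring list called higher (red), lower (blue) or not called (grey) against BSA, for palmitate, IL-1β and both agents, at an edgeR adjusted p under 0.05. The adhesion ligand list has 10 red and 4 blue genes with palmitate, and the NF-kB list has red genes and no blue ones in all 3 panels. Over all genes 37.3% were called with palmitate, 15.1% with IL-1β and 47.3% with both.

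NF-kB subunits and Irf1, transcription factors known to act at the Vcam1 and Icam1 genes, were all tested. Of these 6 genes, 5 were called higher with palmitate, 6 with IL-1β and 6 with both (edgeR), with a median log2 fold change of 0.86 with palmitate and 0.74 with IL-1β. Higher calls over all genes made up 19.8% with palmitate, 10.1% with IL-1β and 24.8% with both. Irf1 stood at 19.3 ± 0.598 CPM in BSA, 37.3 ± 1.46 with IL-1β, 44.0 ± 2.93 with palmitate and 49.4 ± 0.647 CPM with both (SD, n = 4). Nfkb1 stood at 58.0 ± 4.51, 75.6 ± 2.89, 130 ± 3.64 and 142 ± 2.87 CPM in the same order. The largest palmitate difference of the list, 1.18 on the log2 scale (SE 0.052) for Irf1, was smaller than that of each ligand gene.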

How the data were processed

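RNA of 16 mGF libraries was sequenced. Per the submitters' processing notes and the study's methods, the authors trimmed reads (Trimmomatic 0.39), aligned them to GRCm39 with GENCODE vM33 genes (STAR 2.7.10a), counted reads per gene (HTSeq 2.0.9) and tested with DESeq2. The deposited values are raw counts. Rows that name no gene, 18.3% to 21.4% of a library, were left out. The study's methods describe oligo(dT)-primed cDNA, the labels a stranded total RNA kit.

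From the counts, edgeR 4.0.16 (R 4.3.3; TMM, filterByExpr at its default minimum count of 10, robust glmQLFit, glmQLFTest) was fitted to all 16 libraries with a mean per condition, with Benjamini-Hochberg adjustment over 16306 genes. The steps were tested on simulated data. Floors of 3 counts cover counting error only. Lengths and positions came from GENCODE vM39.

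The 6 genes and the lists were chosen with earlier results of these data known. Genes named from a list are up to 2 of its largest called rises and falls. Other tested genes of a list are said to be named after their values were seen. The alternatives were DESeq2 1.42.0, upper-quartile scaling, other count filters, a fit free of mitochondrial and ribosomal RNA, a fit of 8 libraries, a fold limit, and omission of single libraries.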

Additional observations from a re-analysis of the deposited data

Results flagged for a closer look

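Among 24 checks of a gene within a condition and 4 of depth, 5 had 1 library whose gap to the nearest other, as a share of the group's range, passed 0.829, where chance passes about 1 in 20. They were Cx3cl1 in BSA (0.968, replicate 3 low), Vcam1 with palmitate (0.847, replicate 12 low), Vcam1 with both agents (0.883, replicate 16 low), and total counts of the IL-1β libraries (0.860) and of the palmitate libraries (0.918, replicate 10 high).

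On the log2 scale, palmitate made a smaller difference on top of IL-1β than on top of BSA for Vcam1 (interaction -1.67), Icam1 (-3.29), Cx3cl1 (-1.08) and Cxcl16 (-1.52), by the edgeR interaction test. This depends on the scale. In CPM, the level with both agents differed from BSA plus the single-agent increments by 1.02 (SE 4.09) for Icam1 and -4.21 (SE 2.24) for Cxcl16. The same difference was -80.5 CPM (SE 12.5) for Vcam1 and -52.6 CPM (SE 9.66) for Cx3cl1.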

How the results depend on the processing

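Of 960 values of the 6 genes recomputed under 23 settings, 934 kept their direction and side of the threshold, 10 passed it newly, 11 lost it and 5 changed sign, all 5 in differences that were not called. The sign changes were Adam10 for IL-1β against BSA under upper-quartile normalization (-0.027) and, on leaving out 1 library, Adam10 for palmitate against BSA (range -0.051 to 0.0014), Adam10 for IL-1β against BSA (-0.0057 to 0.042) and Cxcl16 for both against palmitate (-0.013 to 0.051). For both against palmitate, 1 of the 6 genes, Icam1, was called by DESeq2, in the 8 libraries alone, and without BSA replicate 3 or 4 or palmitate + IL-1β replicate 16, so that leaving out 1 library gave 0 to 1. Adam10 with both against BSA was called under 5 settings, by DESeq2 (adjusted p = 0.0247) and, by edgeR, under upper-quartile normalization (-0.16, adjusted p = 0.000477), with at least 10 counts in every library (adjusted p = 0.0150), without mitochondrially encoded and ribosomal RNA genes (adjusted p = 0.0395) and without BSA replicate 1 (adjusted p = 0.0208).

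Upper-quartile normalization moved the share of calls that were higher from 53.1% to 37.1% for palmitate, from 67.1% to 43.5% for IL-1β and from 52.4% to 38.7% for both, each against BSA, with the median of all genes at -0.07, -0.05 and -0.08. Under it, calls numbered 5 in other ADAM proteases and 1 in receptors with palmitate, 6 in sheddase partners with IL-1β and 2 in receptors with both. A log2 fold change above 1 left 5 adhesion ligands, 1 receptor, 2 sheddase partners, 1 other ADAM, 9 shed substrates and 2 NF-kB genes with palmitate. It left 1 adhesion ligand, 2 shed substrates and 0 sheddase partners, other ADAMs or NF-kB genes with IL-1β, and 5 adhesion ligands, 2 sheddase partners, 1 other ADAM and 9 shed substrates with both. The single ADAM call with IL-1β (Adam8) was lost in 15 of 22 fits, and the count became 0 without a filter and in the 8 libraries alone, where adhesion ligands gave 4. Leaving out 1 library gave 1 to 3 receptor calls and 1 to 3 other ADAM calls with palmitate, and 0 to 2 other ADAM calls with IL-1β. The cause of these shifts was not tested. No paired analysis was possible because the labels number the libraries 1 to 16 with no number shared between conditions.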
